A study of Homo sapiens with 2 samples.

Results

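The 87 protein-coding genes for proteins of the cytosolic ribosome were followed among 33538 genes in SH-SY5Y cells, a neuroblastoma line subcloned from SK-N-SH. They were chosen by symbol (RPL and RPS followed by a number, the stalk proteins RPLP0, RPLP1 and RPLP2, and RPSA, FAU and RACK1), without RPS4Y1, the RPS6K kinases and RPS27L, and comprise 53 genes of the 60S and 34 genes of the 40S subunit. Of these, 8 are paralogous copies (RPL3L, RPL7L1, RPL10L, RPL22L1, RPL26L1, RPL36AL, RPL39L and RPS4Y2). The rule itself used no measured value, but the genes were chosen with earlier results of these data known.

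The cytosolic ribosome of human cells is built from a large 60S and a small 40S subunit, and each of its proteins is encoded by a gene of its own. These genes are transcribed at high levels in growing cells, and most of their mRNAs begin with a C followed by a run of pyrimidines, the 5′ terminal oligopyrimidine (TOP) motif, through which mTORC1 and LARP1 control their translation and storage. A few of the genes have a second, paralogous copy, such as RPL22L1 beside RPL22 and RPL39L beside RPL39, whose product can take the place of its partner in the ribosome.

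Untreated cells were grown in 2 flasks, SplitA and SplitB, marked with 1 hashtag antibody each, and pooled into 1 droplet library of 3′ cDNA with unique molecular identifiers (UMIs). Of the 2879 cells, each with its own barcode, 1179 were singlets of SplitA, 1605 were singlets of SplitB and 95 were multiplets, which were left out. The kept cells, with at least 1000 genes and under 15% of their UMIs on the 13 mitochondrial genes for proteins, numbered 829 in SplitA and 1091 in SplitB, with a median of 6329 and 6579 UMIs. The adrenergic identity of the line was visible in its markers, since 8 of 10 adrenergic genes (PHOX2A and HAND2 among them) had over 100 UMIs in kept cells, against 2 of 10 mesenchymal genes and 0 of 5 genes of other cell types, 4 of which (PTPRC, CD3E, LYZ and PECAM1) were at 0. The flasks were 1 against 1, and the cell classes were made from the same counts that were compared, so no test was made: every value below is a description, given for each flask, and intervals are exact at 95% and cover counting error only.

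The start of the transcripts is shown first, since it is what most of these genes share. Promoter sequences of RefSeq (GRCh38.p14) were at hand for 64 of the 79 genes that are no paralogous copy and for 6 of the 8 copies. A run of at least 5 pyrimidines beginning with C lay exactly at the annotated start, on the strand of the gene, in 44 of the 64 (68.8%), in 1 of the 6 copies (RPL22L1) and in 4.07% of 35116 promoters of all genes. When the run could begin up to 10 bases to either side, the shares were 87.5%, 33.3% and 33.5%. The windows below hold 10 bases before the start and 20 bases from it on, and capitals mark the run at the start. They are printed for RPL22 and RPL26 with their copies, for RPL39, and for some of the genes that stood apart in the results that follow.
RPL22 (chr1:6199576-6199605, minus strand): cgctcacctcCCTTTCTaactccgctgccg
RPL22L1 (chr3:170870176-170870205, minus strand): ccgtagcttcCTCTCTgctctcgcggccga
RPL26 (chr17:8383174-8383203, minus strand): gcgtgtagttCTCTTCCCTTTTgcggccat
RPL26L1 (chr5:172958870-172958899, plus strand): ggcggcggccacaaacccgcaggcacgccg
RPL39 (chrX:119791611-119791640, minus strand): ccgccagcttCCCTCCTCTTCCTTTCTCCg
RPLP1 (chr15:69452808-69452837, plus strand): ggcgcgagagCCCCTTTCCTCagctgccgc
RPS27 (chr1:153990752-153990781, plus strand): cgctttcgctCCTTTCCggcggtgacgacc
RPS21 (chr20:62387093-62387122, plus strand): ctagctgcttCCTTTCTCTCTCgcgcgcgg
RACK1 (chr5:181243887-181243916, minus strand): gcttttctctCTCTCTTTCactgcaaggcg
FAU (chr11:65122115-65122144, minus strand): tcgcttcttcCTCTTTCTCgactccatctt

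RPL39 had the longest run of these windows, with 19 pyrimidines, and RPL26L1 had none at its start although RPL26 had 12. RPS27 and RPS21, which lay at opposite ends in cells with a high mitochondrial share, began with runs of 7 and 12 bases. Other genes at the same ends (RPS7, RPS28 and RPS29) had no run of 5 exactly at the annotated start. When the run could begin up to 10 bases away, RPS7 had 11 and RPS28 had 9 pyrimidines, and RPS29 had 2. Of the genes with a promoter sequence in that comparison, 13 of 23 that departed upward, 14 of 20 that departed downward and 18 of 22 others had the run exactly at the start.

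Ribosomal protein genes held 41.3% of all non-mitochondrial UMIs of the kept cells in each flask, and single cells ranged from 17.1% to 60.6% in SplitA and from 17.2% to 61.1% in SplitB. Of the 87 genes, 84 had UMIs. No UMI was counted in kept cells for RPL10L, RPL3L and RPS4Y2, paralogous copies known from germ cells, muscle and the Y chromosome, and 3 counts per flask, the limit that a count of 0 allows, correspond to 0.582 counts per 1000000 UMIs (CPM) in SplitA and 0.425 CPM in SplitB. CPM were computed over non-mitochondrial UMIs, and since each UMI marks the 3′ end of 1 captured transcript, they were compared between genes without a length correction. Among the 100 highest non-mitochondrial genes, 74 were ribosomal protein genes, and 76 were seen in at least 99% of the kept cells of both flasks.

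Levels differed 58.9-fold among the 79 genes that are no copy, although the ribosome holds most of these proteins once. This range rests on RPL17, at 242 CPM over both flasks, and the next lowest, RPL22, was at 977 CPM. RPS27 was highest, with 14220 CPM in SplitA and 14264 CPM in SplitB, followed by the stalk protein gene RPLP1 with 13846 and 14035 CPM. Next came RPL41, which encodes the shortest protein of the ribosome, RPS18, RPS2, RPL13, RPL13A, RPLP2, RPS19 and RPL37A, and these 10 genes held 27.4% of all ribosomal protein UMIs. RPLP0, whose protein is the base of the stalk on which RPLP1 and RPLP2 sit, was much lower than its partners, with 3388 and 3356 CPM. At the low end, RPL17 had 237 and 246 CPM, RPL22 had 967 and 984 CPM, RPS10 had 1124 and 1140 CPM and FAU, which encodes a ubiquitin-like protein fused to RPS30, had 1577 and 1681 CPM. The annotation places exons of another gene on the same strand over exons of 8 of the genes, RPL17, RPS10, FAU, RPL36A, RPL36, RPL26 and RPS15A among them. The readthrough genes RPL17-C18orf32, RPS10-NUDT3 and RPL36A-HNRNPH2 had 5, 4 and 0 UMIs. Whether reads that fit both genes of an overlap were lost from the counts, as for RPL17, was not tested.

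**Figure D1:**
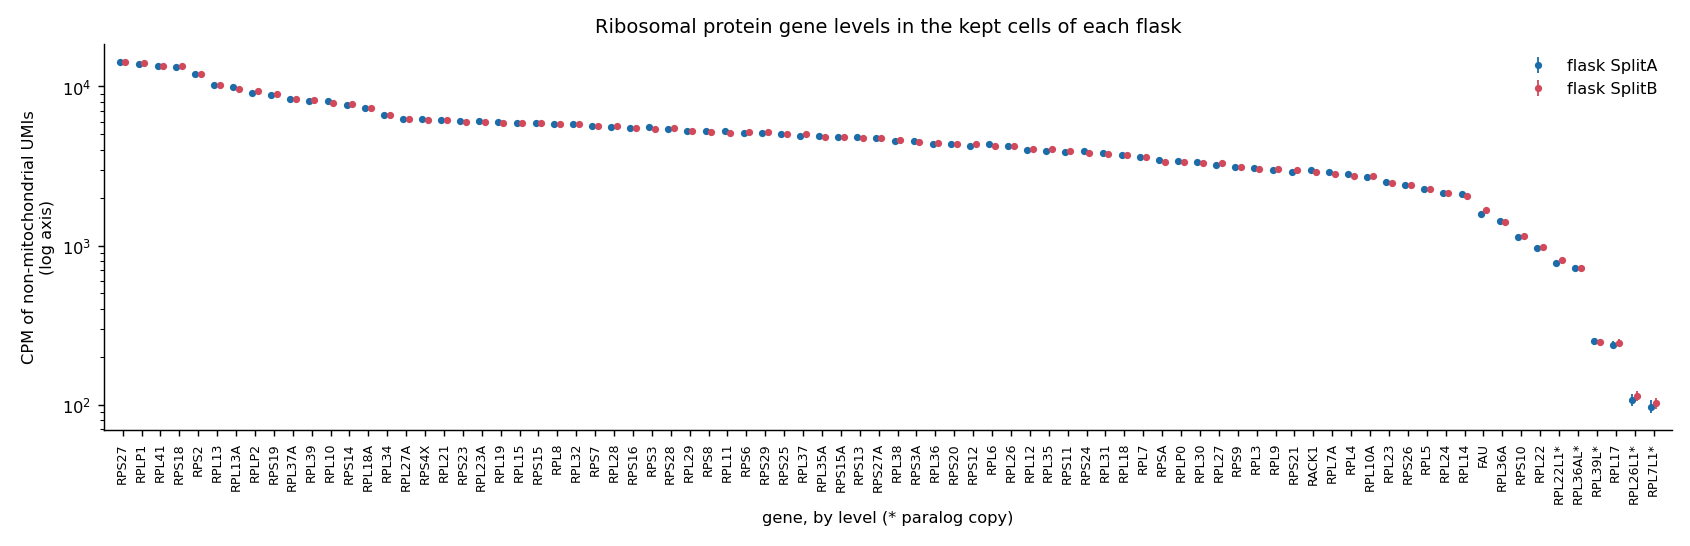
Level of the detected ribosomal protein genes that are reported, in the kept cells of flask SplitA (blue) and SplitB (red), in CPM of non-mitochondrial UMIs on a log axis, with exact 95% Poisson intervals. Levels fall from 14245 CPM (RPS27, both flasks together) to 99.8 CPM (RPL7L1), and the points of the 2 flasks nearly coincide for every gene.

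The 5 detected copies with a partner were lower than it in each flask, by very different margins. RPL22L1 reached 778 CPM in SplitA and 807 CPM in SplitB, close to RPL22. RPL36AL reached 727 CPM in both, against 1430 and 1401 CPM of RPL36A. RPL39L was at 250 and 246 CPM beside 8078 and 8240 CPM of RPL39, RPL26L1 at 107 and 113 CPM, and RPL7L1 at 97.2 and 102 CPM. In the last 600 bases, RPL36AL shared 14 of 551 stretches of 50 bases with RPL36A and RPL39L shared 18 of 551 with RPL39, while RPL36A shared 123 of 551 with the readthrough gene RPL36A-HNRNPH2, which had 0 UMIs. Reads lying wholly within a shared stretch could not be told apart, while reads reaching beyond it could. Read length was not compared with these stretches, and whether the levels of RPL36A, RPL36AL and RPL39L were affected was not tested. Only protein-coding transcripts were searched for shared stretches. The annotation also names pseudogenes for many of the genes, such as 133 for RPL21 and 49 for RPL17, and 0 for RPL39L. Whether reads shared with pseudogenes changed the levels of these or other genes was not tested.

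The flasks did not differ in any of these genes by the limit used throughout, a log2 ratio of 0.25 (1.19-fold): 0 of 84 were past it, where 7.67% of all 5033 genes compared were. The median absolute log2 ratio of SplitA over SplitB was 0.019 for the 84 genes and 0.078 for all genes, and FAU was farthest, at -0.092. Genes entered this comparison at 100 expected UMIs, while each of the 84 had at least 1218 UMIs in kept cells. Counting error is larger at low counts and depth was not matched. These values therefore do not show that ribosomal protein genes were steadier than other genes of like depth.

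Within a flask, the composition of the group varied from cell to cell by more than counting noise. For each gene the squared deviation from the UMIs expected by the ribosomal protein UMIs of the cell was divided by that expectation, so that counting noise alone gives an index of 1. The index was past 1.2 in both flasks for 59 of 84 genes (70.2%). For all genes, with the expectation taken from non-mitochondrial UMIs, 11.3% of 5586 were past it, and by that measure 78 of the 84 ribosomal protein genes were. The index grows with the level, and after thinning every cell to 2000 UMIs it was past 1.2 for 8 genes. It was highest for RPLP1, at 3.42 in SplitA and 3.57 in SplitB. RPL10, whose product completes the peptidyl transferase side of the 60S subunit late in assembly, had 2.48 and 3.24, and RPL41 2.45 and 2.45. RPS2, RPS19, RPS18, RPS27 and RPL22L1 followed, with means over flasks from 2.20 to 1.90. RPL17, RPL36A, RPS10, RPL7L1 and RPL30 were lowest, between 0.994 and 1.09.

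Expressed as a coefficient of variation in excess of counting noise, which does not depend on the level in this way, 2 paralogous copies were highest, RPL39L with 49.3% in SplitA and 49.0% in SplitB and RPL22L1 with 39.0% and 43.3%. By the mean over flasks RPL36AL and RPL22 followed, with 22.6% and 28.3% and with 22.4% and 27.8%. RACK1, the scaffold protein on the head of the 40S subunit, came next with 19.2% and 20.6%. The measure was unstable for the copies with the fewest UMIs: RPL7L1 had 30.1% in SplitA and -11.2% in SplitB, and RPL26L1 28.5% and 8.09%. For comparison, among genes with at least 5 UMIs per cell and with the expectation from non-mitochondrial UMIs, the median excess was 17.8% for 79 ribosomal protein genes and 27.5% for 85 other genes. Ribosomal protein genes held 41.3% of the non-mitochondrial UMIs in each flask, so this expectation moves with their share of a cell. The 2 medians therefore do not show that ribosomal protein genes varied less than other genes. Within G1 cells alone the index of RPLP1 was 2.83 and 3.39 and that of RPL10 was 2.48 and 3.97, so for these genes the spread was also present inside 1 scored phase.

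Which genes varied together was similar in both flasks. Over the 3486 pairs of the 84 genes, correlations of the deviations across the 829 and 1091 cells were weak, with a median of -0.0083, but the values of the flasks correlated with each other at r = 0.82. The highest pair was RACK1 with RPL5, at 0.30 in SplitA and 0.28 in SplitB. With the cells of a flask divided into 3 equal groups by their RACK1 share, RPL5 was at 4952 and 4898 parts per 1000000 ribosomal protein UMIs (ppm) in the group with least RACK1 and at 6119 and 6036 ppm in that with most. RPS29, at 168 bases of coding sequence one of the shortest, ran the other way, from 13033 and 13615 ppm in the lowest RACK1 group to 11078 and 11348 ppm in the highest. The lowest pair was RPS18 with RPL10, at -0.33 and -0.35: RPS18 was at 33271 and 34040 ppm in the group with least RPL10 and at 29734 and 29944 ppm in that with most. All these shares are parts of 1 total per cell, so that a high share of 1 gene lowers those of the others.

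RPL22 and its copy ran against each other, with r of -0.24 in SplitA and -0.20 in SplitB. From the lowest to the highest of 3 groups of cells by RPL22L1, RPL22 went from 2689 over 2180 to 2124 ppm in SplitA and from 2727 over 2240 to 2170 ppm in SplitB, and the interval of the lowest group did not overlap those of the others. The other pairs of gene and copy (RPL39, RPL26, RPL36A and RPL7 with theirs) had r between -0.083 and 0.029. In SplitA and SplitB, RPL26L1 had 0.67 and 0.73 UMIs per cell, RPL7L1 0.60 and 0.66 and RPL39L 1.55 and 1.59. RPL22L1 had 4.84 and 5.22, and RPL36AL 4.52 and 4.70. Counting noise draws r toward 0 at low counts, so the pairs of RPL26L1, RPL7L1 and RPL39L cannot be set against that of RPL22L1.

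Part of this variation went with coding length. There were 17 pairs with r of at least 0.2 and 26 pairs with r of -0.2 or less in both flasks. Pairs whose mean r was at least 0.2 differed in coding length by a median of 84 bases, those at -0.2 or less by 541.5 bases, and all pairs by 192 bases. The 79 genes that are no copy were therefore divided by coding length into 27 short ones (75 to 405 bases, RPL41 to RPL32), 26 in the middle and 26 long ones (582 to 1281 bases, RPS7 to RPL4). The ratio of short to long UMIs per cell had a median of 1.121 in SplitA and 1.14 in SplitB, and 95% of cells lay between 0.919 and 1.43 and between 0.928 and 1.45. The variance of its log2 value was 4.82 and 5.25 times that of counting noise. Across cells the ratio was higher where there were more UMIs (Spearman's rho 0.39 and 0.36) and higher G2M scores (0.36 and 0.34), and depth and phase were not separated in these values.

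The cell cycle was then examined with phases scored from marker genes, none of them ribosomal. In S the genes were slightly lower than in G1, with a median log2 ratio of -0.071 in SplitA and -0.075 in SplitB, and in G2M they were lower by -0.14 and -0.13. All genes compared had medians of 0.00018 and 0.0068 over the flasks. As a share of non-mitochondrial UMIs the group went from 43.0% and 42.9% in G1 to 41.3% and 40.9% in S and to 39.2% and 39.6% in G2M. Both subunits moved alike, and the ratio of 60S to 40S UMIs stayed between 1.35 and 1.36 in all phases. Median depth was 5859 and 6227 UMIs in G1, 6212 and 6503.5 in S and 7184 and 7215.5 in G2M, and its part in these differences was not fully separated. In cells of 5000 to 8000 UMIs the medians over both flasks were -0.076 and -0.17, while in cells of 1000 to 4000 UMIs (40 in S and 86 in G1) the S value turned to 0.030.

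Against this even background 2 of 84 genes departed in S by the limit (25.3% of all 1635 genes did so from their own median, 15.6% upward and 9.66% downward), both paralogous copies and both upward. RPL39L had 141 CPM in G1 cells of SplitA and 144 CPM in those of SplitB, 309 and 298 CPM in S, and 337 and 338 CPM in G2M, so that S and G2M lay more than 2-fold above G1 in each flask. Its departure from the group median was 1.21 and 1.13 (log2) in S and 1.41 and 1.36 in G2M. RPL22L1 rose from 705 and 705 CPM in G1 to 860 and 918 CPM in S and was at 797 and 842 CPM in G2M, a departure of 0.36 and 0.46 in S and of 0.32 and 0.38 in G2M. RPL22 ran the other way, with 1068 and 1095 CPM in G1, 946 and 951 CPM in S and 853 and 863 CPM in G2M. Of the UMIs of this pair, RPL22L1 thus held 39.8% and 39.2% in G1, 47.6% and 49.1% in S and 48.3% and 49.4% in G2M. RPL39L held 1.64% and 1.66% of its pair in G1 and 4.18% and 4.08% in G2M.

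In G2M, 5 of 84 genes departed from the group (40.3% of all 1751 genes did from theirs, 22.6% upward and 17.7% downward). Besides RPL39L and RPL22L1, RPL26L1 was higher, by 0.35 and 0.28, and rested on 187 and 253 UMIs in G2M, and the interval of its CPM ratio to G1 over both flasks, from -0.014 to 0.36, included 0. In the same phase RACK1 was lower, going from 3396 and 3324 CPM in G1 to 2499 and 2442 CPM in G2M, a departure of -0.30 and -0.32, and RPL5 from 2615 and 2569 CPM to 1911 and 1927 CPM, a departure of -0.31 and -0.29. RPL11, which with RPL5 forms the 5S particle that can bind MDM2 and so raise p53, departed by no more than -0.060 on average over the flasks in G2M. On the CPM scale itself, 1 gene was higher (background 23.1%) and 9 were lower (background 17.3%): RACK1, RPL5, RPL17, RPL22, RPL14, RPL7, RPL12, RPL4 and RPL6. The stalk gene RPLP1 stayed at its G1 level, with log2 ratios of 0.0061 and 0.0026 in G2M, and RPLP0 had -0.13 and -0.085. After thinning to 2000 UMIs, at which RPL39L and RPL26L1 were too shallow to compare, RPL22L1 still departed in S and RACK1 in G2M, while the mean departures of RPL22L1 (0.24) and RPL5 (-0.23) in G2M no longer passed. In cells of 5000 to 8000 UMIs RACK1 (-0.25) did not pass in both flasks. RPL26L1 did not with at least 300 genes per cell (0.27) or with the updated phase list (0.26). In cells of 1000 to 4000 UMIs RACK1 (-0.21) and RPL5 (-0.068) did not pass, and the copies were too shallow.

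**Figure D2:**
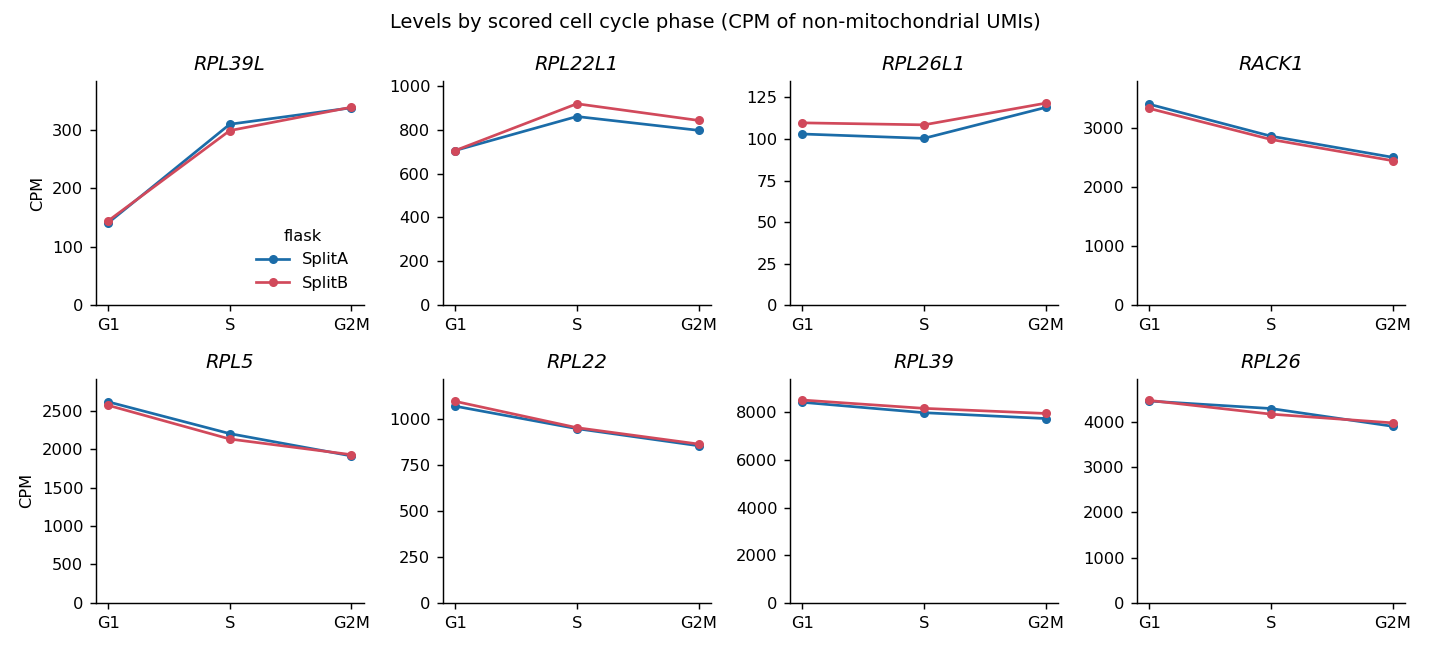
CPM of non-mitochondrial UMIs in kept cells scored G1, S and G2M, for 8 ribosomal protein genes in flask SplitA (blue) and SplitB (red), each panel with its own axis from 0. RPL39L goes from 141 and 144 CPM in G1 to 337 and 338 CPM in G2M, while RACK1 goes from 3396 and 3324 to 2499 and 2442 CPM.

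The order of the genes in these ratios followed coding length. Across the 84 genes, Spearman's rho of the log2 ratio with coding length was -0.61 in S and -0.67 in G2M, and -0.63 and -0.66 without the copies. Among the other genes compared it was 0.042 (1519 genes) and 0.17 (1631 genes). The level of the 84 genes in kept cells (CPM) also went with these ratios. Its rho was 0.29 in S and 0.25 in G2M, and 0.39 and 0.43 without the copies. Length and level were not separated. Genes are not independent replicates, so no test is attached. The ratio of short to long UMIs was 1.09 and 1.118 in G1, 1.16 and 1.19 in S and 1.21 and 1.23 in G2M, and the intervals of the phases did not overlap within a flask. In cells of 5000 to 8000 UMIs rho with coding length was -0.55 and -0.61. After thinning to 2000 UMIs it was -0.44 and -0.57, and in the shallow cells of 1000 to 4000 UMIs -0.080 and -0.36.

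Genes of related function were described by lists. Of 18 TOP mRNAs outside the group, 17 could be compared, and 0 were higher (background 15.7%) and 3 lower (background 9.42%) in S (the initiation factor subunits EIF3E, EIF3H and EIF3M, with mean log2 ratios of -0.50, -0.31 and -0.29). In G2M, 0 were higher and 10 lower (background 23.1% and 17.3%), with a median of -0.32, and EEF1A1, the main elongation factor, had -0.34 and -0.29. Of 20 ribosome biogenesis genes only 5 could be compared, with a median of 0.26 in S and 0.12 in G2M. NOP56, a protein of box C/D snoRNPs, had 0.74 and 0.67 in S and 0.85 and 0.89 in G2M, and NCL 0.40 and 0.41 in S.

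**Figure D3:**
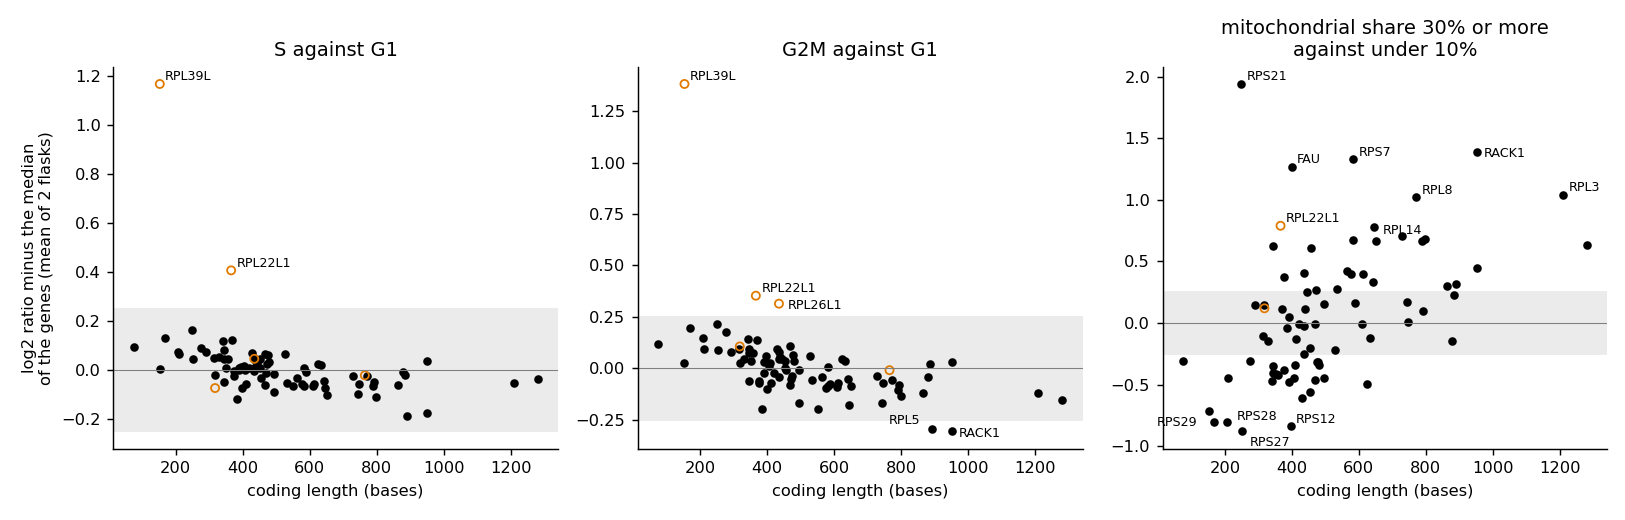
Departure of the reported ribosomal protein genes from the group (log2 ratio minus the median of these genes, mean of 2 flasks) against coding length in bases, for S against G1, G2M against G1 and mitochondrial share of 30% or more against under 10%. Black points are genes, orange circles paralogous copies and the grey band the limit of 0.25, and Spearman's rho over all genes compared is -0.61, -0.67 and 0.51.

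Mitochondrial share divided the cells far more sharply. Here all 2784 singlets were used. Ribosomal protein genes held 41.5% and 41.3% of non-mitochondrial UMIs in cells under 10% mitochondrial UMIs (680 of SplitA, 915 of SplitB) and 40.6% and 41.3% in cells of 10 to 15% (167 and 215 cells). In cells of 15 to 30% (139 and 128 cells) they held 17.9% and 21.4%, and at 30% or more (193 and 347 cells) 14.3% and 14.3%. The largest change between neighbouring bins lay at 15%: the median over cells was 40.2% and 40.3% in the bin from 10 to 15% and 19.7% and 23.3% in the bin from 15 to 20%, which held 18 and 28 cells. It went on to 16.3% and 16.0% from 20 to 25%, 15.3% and 14.1% from 25 to 30% and 14.2% and 13.2% from 30 to 35%, and in the few cells over 55% (11 and 24) it was 21.2% and 25.9%. In the 23 and 41 cells under 5%, by contrast, the medians were 40.6% and 32.2%. Across the kept cells, all under 15%, share and mitochondrial percent had a rho of -0.034 and 0.050.

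**Figure D4:**
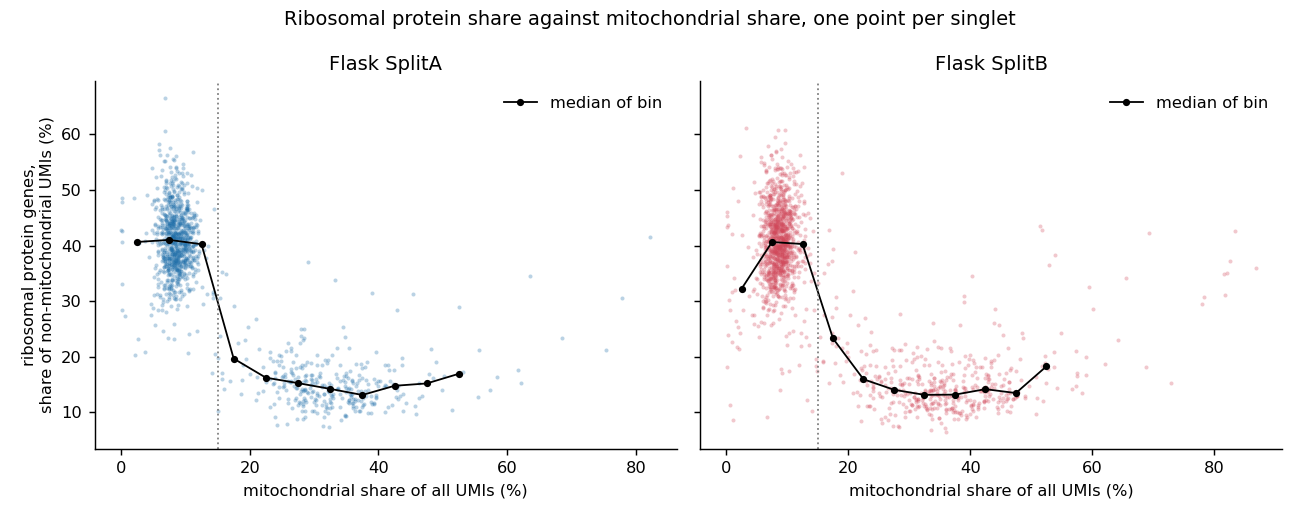
Share of non-mitochondrial UMIs on ribosomal protein genes (%) against the mitochondrial share of all UMIs (%), 1 point per singlet, for each flask. Black lines join the medians of bins of 5 percentage points up to 55% and the dotted line marks 15%, beyond which the median falls from 40.2% to 19.7% in SplitA and from 40.3% to 23.3% in SplitB.

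Several other measures moved with it. Median depth was 1853 and 2054 UMIs at 15 to 30% and 1511 and 1468 at 30% or more, against 6175 and 6432 under 10%. MALAT1, a nuclear noncoding RNA, went from 15097 and 14537 CPM to 45575 and 46855 CPM at 30% or more, and TUBA1A from 538 and 511 to 5864 and 5656 CPM. Their part in the result was not tested. In cells of 1000 to 4000 UMIs in all classes the median log2 ratio was -1.29 at 15 to 30% and -1.54 at 30% or more, against -1.07 and -1.60 in cells of all depths.

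Relative to cells under 10%, the genes had a median log2 ratio of -1.26 in SplitA and -0.92 in SplitB at 15 to 30%, and of -1.65 and -1.61 at 30% or more. All 251 and 225 genes deep enough for comparison had -0.66 and -1.18 over the flasks. The 80 ribosomal protein genes compared were among them, so these medians and the background shares are not separate from the group. Of the 80 ribosomal protein genes compared, 76 were lower in the first class (background 65.3%) and 77 in the second (background 77.3%), and none was higher in the first. RACK1 and RPS7 were not called in the second, as they were past the limit in SplitA but not in SplitB, and 7 genes (RPL10L, RPL17, RPL26L1, RPL39L, RPL3L, RPL7L1 and RPS4Y2) had too few UMIs.

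At 30% or more, 51 of 80 genes (63.8%) departed from the group, 27 upward and 24 downward (background 69.3%, 36% upward and 33.3% downward). At 15 to 30%, 24 (30.0%) did, 14 upward and 10 downward (background 61.4%, 33.5% and 27.9%). Without SplitB, where a gene had to pass in SplitA only, 44 did, and no background was computed for that looser rule. Both shares lay below the background, which counts these 80 genes too and was not matched for depth. RPS21, a small protein of the 40S subunit, was the only one of the 80 that was higher in CPM (background 11.6%): from 2923 and 2973 CPM under 10% to 3495 and 3825 CPM at 30% or more, after 2689 and 2780 CPM at 15 to 30%. Its departure from the group was 1.90 and 1.98. The CPM total includes the group itself, which went from 41.5% and 41.3% of it under 10% to 14.3% and 14.3% at 30% or more. Relative to the UMIs of genes outside the group, RPS21 was lower, not higher, at 30% or more in both flasks. RACK1 was at 2953 and 2919 CPM under 10% and still at 2433 and 2544 CPM at 30% or more, a departure of 1.37 and 1.42. RPS7 was at 5726 and 5608 CPM and then at 4400 and 4797 CPM, a departure of 1.27 and 1.39. FAU went from 1572 and 1689 CPM to 1313 and 1224 CPM, a departure of 1.39 and 1.15. RACK1, RPS7 and FAU thus had mean log2 ratios of -0.24, -0.30 and -0.36, while the group fell to 0.330 of its level in the other cells. RPL3, RPL8, RPL22L1, RPL14, RPS3, RPL7A and RPS9 were among those that followed, with mean departures from 1.04 down to 0.67.

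At the other end, RPS27, the highest of all in the kept cells, went from 14254 and 14129 CPM under 10% to 3640 and 5589 CPM at 15 to 30% and to 2438 and 2544 CPM at 30% or more, a departure of -0.90 and -0.86. RPS12 went from 4233 and 4315 CPM to 732 and 814 CPM, a departure of -0.89 and -0.79, RPS29 from 5081 and 5107 to 931 and 949 CPM and RPS28 from 5344 and 5414 to 1004 and 988 CPM. RPL39, RPS23 and RPS14 were next, at -0.72, -0.61 and -0.56 on average. The departures of the 80 genes correlated between the flasks, with r = 0.97 at 30% or more and 0.94 at 15 to 30%. The size of the fall was less alike at 15 to 30%, where the median log2 ratio was -1.26 in SplitA and -0.92 in SplitB.

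**Figure D5:**
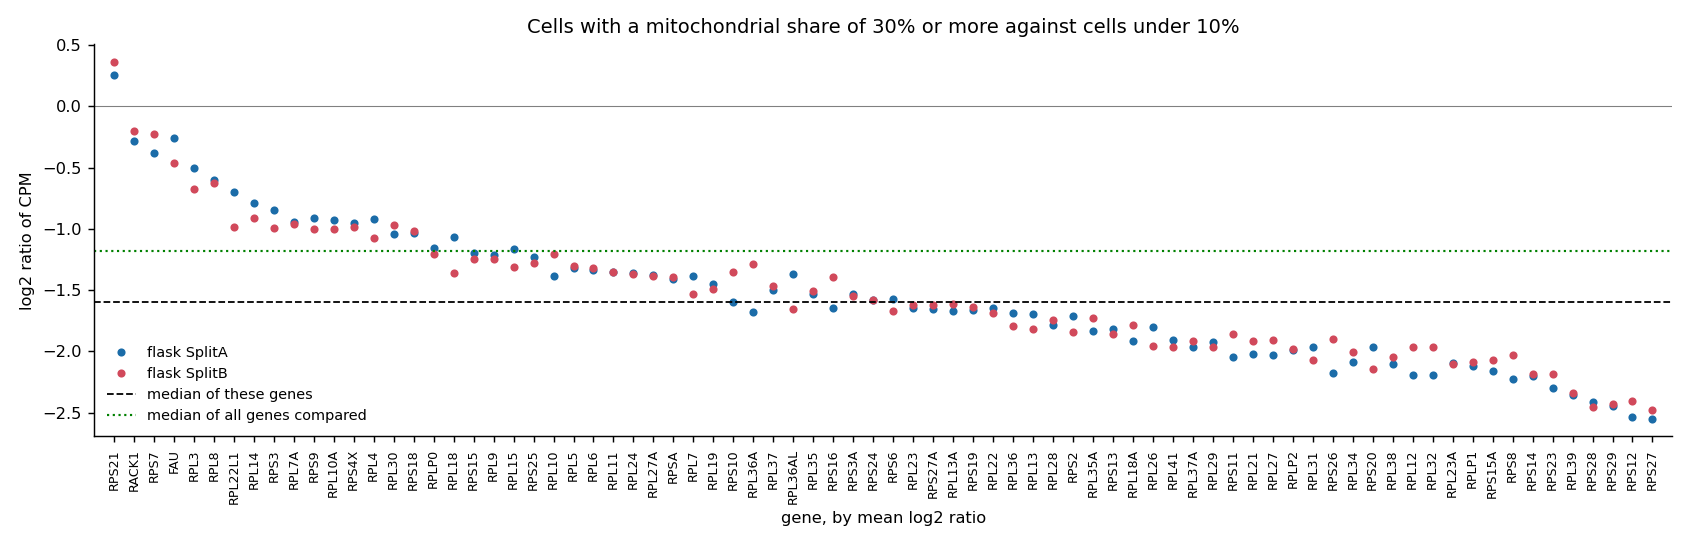
Log2 ratio of CPM in cells with a mitochondrial share of 30% or more over cells under 10%, for the ribosomal protein genes compared and reported, ordered by their mean, in flask SplitA (blue) and SplitB (red). The dashed line is the median of all 80 compared (-1.60). The dotted line is that of all 225 genes compared, these 80 among them (-1.18). RPS21 alone lies above 0 in both flasks, on a CPM scale whose total includes these genes.

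RPLP0 fell less than its stalk partners at 30% or more, with a mean departure of 0.45 against -0.47 for RPLP1 and -0.35 for RPLP2. RPL5 and RPL11 of the 5S particle were both slightly above the group, at 0.32 and 0.28. Of the fusion genes, FAU stood at 1.27 while RPS27A, which encodes ubiquitin fused to a 40S protein, stood at -0.0070. The ratio of 60S to 40S UMIs was 1.35 and 1.35 under 10% and 1.22 and 1.198 at 30% or more.

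Coding length ran through these ratios in the direction opposite to that of the cycle, with longer genes falling less: rho was 0.46 at 15 to 30% and 0.51 at 30% or more across 80 genes. It was as high in the other genes compared, at 0.51 (168 genes) and 0.55 (143 genes). The level of the 80 genes in kept cells (CPM) also went with these ratios, with rho of -0.44 and -0.38. Length and level were not separated. Short genes held 15.2% of non-mitochondrial UMIs in both flasks under 10% and 4.21% and 4.30% at 30% or more, and long genes 13.3% and 13.1% and then 5.89% and 5.69%, so that the ratio of short to long UMIs went from 1.14 and 1.16 to 0.714 and 0.756. At 10 to 15% it was higher, 1.17 and 1.201, and across kept cells its rho with mitochondrial percent was positive, 0.20 and 0.17. RPS21, with 249 bases, and FAU, with 399 bases, did not follow this order.

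The TOP mRNAs for other proteins had a less negative median than the ribosomal protein genes. Of 9 that could be compared at 30% or more, 2 were higher (background 11.6%) and 6 lower (background 77.3%), with a median of -0.41, and their summed level was 21557 and 21487 CPM under 10% and 15715 and 15637 CPM at 30% or more. EEF1A1, near the ribosomal protein genes in abundance, went from 6723 and 6568 CPM to 5509 and 5339 CPM.

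The copies RPL22L1, RPL7L1 and RPL26L1 held a larger part of their pair in these cells, on few UMIs. RPL22L1 held 44.2% and 45.3% of the UMIs of its pair under 10% and 60.5% (92 UMIs, interval 52.3 to 68.4%) and 57.4% (139 UMIs, 50.9 to 63.7%) at 30% or more. RPL7L1 held 2.66% in SplitA under 10%, with SplitB within its interval of 2.42 to 2.93%, and 10.1% (30 UMIs, interval 6.94 to 14.2%) and 9.70% (45 UMIs, 7.16 to 12.8%) at 30% or more. RPL26L1 held 2.502% and 2.63% of its pair and then 6.77% (17 UMIs, 3.99 to 10.6%) and 8.04% (32 UMIs, 5.56 to 11.2%). For RPL36AL the share was 33.2% and 33.9% and then 38.1% and 28.5%, within the intervals of the latter. RPL39L held 3.03% and 2.98% and then 3.49% (11 UMIs, 1.76 to 6.16%) and 4.58% (26 UMIs, 3.01 to 6.64%).

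A small class of kept cells was formed with TUBA1A and HSP90AA1, which the paper reports as higher in a cluster of cells from this same library. The paper also describes low levels of some ribosomal protein genes in that cluster. A lower share in this class was therefore known beforehand and is no separate finding. Cells with at least 0.4% of their non-mitochondrial UMIs on TUBA1A and HSP90AA1, a tubulin and a chaperone gene, numbered 16 in SplitA and 19 in SplitB, with a median mitochondrial share of 7.58% and 9.16% and a median depth of 6293 and 5835 UMIs, near those of the other kept cells. Ribosomal protein genes held 28.1% and 26.0% of their non-mitochondrial UMIs, against 41.6% and 41.5% in the other kept cells, and their median log2 ratio was -0.53 and -0.66. Such cells made up 90.6% and 85.9% of the singlets at 15 to 30% mitochondrial share and 90.7% and 85.9% of those at 30% or more. Of 77 genes compared, 70 were lower. The background of 67.7% counts these 77 among its 127 genes, so it is not separate from them. From the group 7 departed, 3 upward and 4 downward (33.1% of all 127 genes did from their median, 22% upward and 11% downward). FAU and RPL8 were among the higher ones, at 0.63 and 0.31 on average, and RPL31, RPS27, RPS12 and RPS28 lower, at -0.34, -0.33, -0.30 and -0.26. FAU, with 1614 and 1732 CPM in this class and 1576 and 1680 CPM in the other kept cells, did not fall in CPM in either flask. The CPM total includes the group, and relative to the UMIs of genes outside it FAU was lower in both flasks. Across the 77 genes, r between the flasks was 0.71. The number past the limit was 17 without SplitB and 19 without SplitA, on few cells. In these counts a gene had to pass in the 1 remaining flask only, a looser rule than passing in both.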

How the data were processed

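UMI counts per gene and cell were deposited by the authors as whole numbers without normalization. Per the labels, reads were processed with STAR 2.7 and Cell Ranger 4.0.0 on GRCh38. The annotation version is not given in the sources used here, so Ensembl identifiers were matched to GENCODE release 44 and its canonical transcripts gave coding lengths. A cell was given to a flask where 1 hashtag had at least 3 times the counts of the other and the other at most 185, following the study code. Doublets within a flask were not removed. The filter on mitochondrial share counted all 13 genes for mitochondrial proteins, of which the study code finds 9. Phases were scored with Seurat 5.3.0 in R 4.3.3 (42 of 43 S and 52 of 54 G2M genes found), and all else with Python 3.11.15, numpy 2.4.6, scipy 1.17.1 and pandas 2.3.3. Counts were summed per class and flask. A gene was compared where at least 100 UMIs were expected in the smaller class of each flask, and called where both flasks were past 0.25 on the log2 scale with 1 sign. A departure was the log2 ratio minus the median of the ribosomal protein genes compared in that flask. Genes were named by rule: the 10 highest, all copies, those without UMIs, the 8 highest and 5 lowest in dispersion index, up to 12 past the limit in each contrast, and stalk, 5S particle, fusion and RACK1 genes; others are given to explain a result and were chosen after their values were seen. The genes, lists and cell classes were chosen with earlier results of these data known. The steps were tested on simulated data. Alternatives concerned the hashtag limit, filters, scaling, depth, phase list, thresholds and leaving out each flask. Some genes are not reported here by name, and counts include them.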

Additional observations from a re-analysis of the deposited data

How the results depend on the processing

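No test was made, paired or unpaired. Classes were compared within each flask, and the flasks were left out in turn. The shift of the ribosomal protein genes and the number that departed are given per contrast, S, G2M, mitochondrial share of 15 to 30% and of 30% or more, and the TUBA1A and HSP90AA1 class, with main values of -0.073, -0.13, -1.07, -1.60 and -0.57 and of 2, 5, 24, 51 and 7 genes. Over the UMIs of other genes, the shifts were -0.12, -0.22, -1.53, -2.15 and -0.89, and over all gene UMIs they were -1.33 and -2.18 for the mitochondrial classes. With mitochondrial share from 9 genes the shifts were -0.10 in S, -0.15 in G2M and -0.94 in the TUBA1A class, where 29 genes then departed, on 174 cells. A hashtag limit of 100 gave -0.067 in S and 4 departures in the TUBA1A class. At least 300 genes per cell gave -0.078 in S, and the updated phase list -0.079; under both, RPL26L1 no longer departed in G2M, and RACK1 did not in cells of 5000 to 8000 UMIs. Thinning gave -0.052 in S with 1 departure in each phase (RPL39L was then too shallow to compare) and 8 genes past the dispersion limit instead of 59. In cells of 1000 to 4000 UMIs the S shift reversed to 0.030, with 0 departures in S and in G2M, that at 30% or more was -1.54 and that of the TUBA1A class -0.77 (2 genes, 0 departures). In cells of 5000 to 8000 UMIs, chosen after seeing the data, the shifts were -0.076 and -0.17, with 3 departures in G2M. A limit of 0.5 left 1, 1, 4, 24 and 1 departures. Reference cells of 10 to 15% gave -1.57 at 30% or more. A class limit of 0.6% gave -0.76 and 16 departures. The share of 41.3% became 41.3% at a hashtag limit of 100 and with 300 genes, 40.7% with 9 mitochondrial genes and 37.8% over all UMIs. The rank correlation (rho) with coding length, also computed after seeing the data, was -0.44 and -0.57 in S and G2M after thinning, -0.080 and -0.36 at 1000 to 4000 UMIs, -0.55 and -0.61 at 5000 to 8000 UMIs, and 0.43 and 0.47 in the mitochondrial classes at 1000 to 4000 UMIs. Without copies, in cells of all depths, rho was 0.52 and 0.55 in the mitochondrial classes. Leaving out a flask gave shares of 41.3 to 41.3%, 62 to 64 genes past the dispersion limit, S shifts of -0.075 to -0.071, G2M shifts of -0.14 to -0.13, shifts of -1.26 to -0.92 and -1.65 to -1.61 in the mitochondrial classes and of -0.66 to -0.53 in the TUBA1A class. Departures were then 2 to 2 in S, 5 to 6 in G2M, 26 to 44, 54 to 58, and 17 to 19, and rho ran from -0.60 to -0.55, -0.67 to -0.65, 0.43 to 0.47 and 0.51 to 0.51. With 1 flask left a gene had to pass in that flask only, so these counts of departures and of genes past the dispersion limit follow a looser rule than the main counts. The cause of these changes was not tested. Depth limits the copies RPL26L1, RPL7L1 and RPL39L and all classes of high mitochondrial share.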
